A study of Mus musculus with 16 samples.

Results

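The promoters and 10 kb profiles of 8 collagen chain genes were compared between endosteal mesenchymal stromal cells (MSCs) with and without Bap1, in 4 histone marks. The members were chosen by symbol, with earlier results of these data known. Col1a1, Col1a2, Col3a1 and Col11a1 encode fibrillar chains, and Col6a1 and Col6a3 encode type VI chains. Col4a3 encodes a basement membrane chain and Col8a1 a short-chain network collagen. All 8 were found among the 3925 genes whose start regions the data cover, and none of their 10 kb windows overlaps that of another measured gene. The cells were stromal cells of the endosteum, the inner bone surface facing the marrow. WT cells came from C57BL/6J mice with floxed Bap1 (Bap1fl/fl). The cKO cells came from C57BL/6J mice of the genotype Prx1-cre;Bap1fl/fl, in which a Cre recombinase driven by Prx1, active in limb mesenchyme, deletes the same floxed allele. The sources used here state neither the age nor the sex of the mice. Chromatin immunoprecipitation sequencing (ChIP-seq) was done with 2 libraries for each of 8 combinations of mark and genotype, 16 libraries in all. Whether a group's pair of libraries stems from different mice is not said in the labels. The p-values therefore measure the spread between libraries, which may be technical. The test estimates this spread with information from all regions tested, so very small p-values do not rest on a gene's own libraries alone. In the antibody field, libraries with H3K4me3 in their title carry anti-acetyl-H3K27, and libraries with H3K27ac in their title anti-trimethyl-H3K4; the titles were followed.

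Collagens are proteins of several chains wound around each other, and each chain has its own gene. Fibrillar collagens form the tensile fibres of bone, skin and cartilage, type VI collagen forms beaded microfibrils around cells, and type IV collagen builds the sheet of basement membranes. Stromal cells of the osteoblast lineage are a main source of type I collagen in bone. H3K4me3 and H3K27ac mark active promoters, and H3K27ac also marks enhancers. H2AK119ub1 and H3K27me3 are placed by Polycomb complexes at repressed genes, and the product of Bap1 removes ubiquitin from H2AK119. The comparison addresses how these marks differ at collagen genes when Bap1 is deleted.

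The libraries held 1283020 (H3K27me3, WT) to 10101047 (H3K4me3, cKO) counts summed over all bins, in which each read is counted in 3 neighbouring bins. The median promoter held 95 to 144 counts in the H3K27me3 libraries, 215 to 317 in H2AK119ub1, 364 to 461 in H3K27ac and 1032 to 1837 in H3K4me3, so a change of a given size is seen most precisely in H3K4me3. Levels are given as CPM, a promoter's counts relative to the autosomal counts of its library scaled by TMM factors, over the 4 kb around the gene start, a length that all promoters share. The authors marked each gene UP (1904 genes) or DOWN (2021 genes). No gene lacks a mark, so shares and ranks over all promoters refer to these marked genes and are no baseline for the whole genome. Col4a3 and Col11a1 carried UP and the other 6 members DOWN, but which contrast gave these marks is not stated in the sources used here. Among stromal marker genes, Cxcl12, the chemokine that retains blood stem cells, had in WT more H3K4me3 than 97.8% of promoters, Pdgfrb, a growth factor receptor of mesenchymal cells, more than 96.0%, and Twist2, a mesenchymal transcription factor, more than 95.5%. Thy1 and Ly6a, surface protein genes, and Prg4, the lubricin gene, had more than 11.1%, 16% and 9.30% only. Of 20 marker genes of blood, endothelial and muscle cells, only Des, which encodes the muscle filament protein desmin, was measured; its H3K4me3 was 22.7 and 13.0 CPM in WT and 10.3 and 11.1 in cKO, and it did not pass the test.

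Of the 8 members, 6 have an entry in the RefSeq promoter table of GRCm38.p6; Col1a1 and Col4a3 have none. The 250 bases before the annotated start are shown for 5 of them: for the fibrillar genes Col1a2 and Col3a1, whose H3K4me3 fell most among the fibrillar chains, for Col11a1, whose H3K4me3 rose, and for the type VI pair, which changed by unequal amounts. They lie at chr6:4505368-4505617 (Col1a2, + strand), chr1:45311288-45311537 (Col3a1, + strand), chr3:114030290-114030539 (Col11a1, + strand), chr10:76726045-76726294 (Col6a1, - strand) and chr1:90843972-90844221 (Col6a3, - strand). Capitals mark each match, on either strand, to 4 short motifs: the TATA box, searched as the letters TATAAA, the CCAAT box, searched as the letters of its name, the GC box, searched as GGGCGG, and the core of the RUNX site, searched as TGTGGT.
Col1a2: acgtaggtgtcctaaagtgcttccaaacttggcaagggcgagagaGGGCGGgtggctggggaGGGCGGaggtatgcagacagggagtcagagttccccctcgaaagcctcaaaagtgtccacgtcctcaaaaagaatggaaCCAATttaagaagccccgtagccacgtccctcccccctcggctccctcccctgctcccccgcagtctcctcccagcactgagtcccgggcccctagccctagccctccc
Col3a1: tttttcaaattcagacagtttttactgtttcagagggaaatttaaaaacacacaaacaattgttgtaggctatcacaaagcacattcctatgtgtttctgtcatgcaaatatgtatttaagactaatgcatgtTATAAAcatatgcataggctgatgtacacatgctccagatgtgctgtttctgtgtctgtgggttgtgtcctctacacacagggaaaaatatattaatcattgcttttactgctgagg
Col11a1: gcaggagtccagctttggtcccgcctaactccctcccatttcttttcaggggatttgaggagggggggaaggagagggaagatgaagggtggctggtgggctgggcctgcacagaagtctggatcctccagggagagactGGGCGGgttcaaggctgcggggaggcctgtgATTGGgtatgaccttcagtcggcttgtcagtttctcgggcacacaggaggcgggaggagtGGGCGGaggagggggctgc
Col6a1: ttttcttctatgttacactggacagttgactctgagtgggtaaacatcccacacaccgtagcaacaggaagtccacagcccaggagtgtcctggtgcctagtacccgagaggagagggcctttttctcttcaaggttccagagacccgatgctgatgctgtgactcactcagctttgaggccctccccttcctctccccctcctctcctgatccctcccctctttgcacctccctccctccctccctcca
Col6a3: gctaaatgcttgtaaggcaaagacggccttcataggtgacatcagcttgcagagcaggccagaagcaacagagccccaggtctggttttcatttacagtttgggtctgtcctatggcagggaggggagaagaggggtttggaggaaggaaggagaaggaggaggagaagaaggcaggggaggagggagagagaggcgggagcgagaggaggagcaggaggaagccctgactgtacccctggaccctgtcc

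The upstream bases of Col1a2 hold a CCAAT match 109 bases before the start and 2 GGGCGG matches, those of Col3a1 hold TATAAA 117 bases before the start, and those of Col11a1 hold CCAAT on the other strand and 2 GGGCGG matches. Neither type VI gene holds any of the 4 motifs in these bases. At Col8a1, not shown, GGGCGG was matched at 4 places on the other strand and TGTGGT at 1, 230 bases before the start. No match overlapped another. These distances count from the RefSeq start, which lies 126 bp after the window's centre at Col1a2 and 124 bp after it at Col6a1. At Col3a1, Col11a1, Col6a3 and Col8a1 it lies within 1 bp of the centre. Distances of promoters, segments and profiles count from the centre. Among the 2280 measured promoters with a sequence, 6.97% hold TATAAA, 36.8% CCAAT, 61.8% GGGCGG and 10.5% TGTGGT. The ratio of observed to expected CpG lay below the median in all 6. It was 0 at Col3a1, 0.17 at Col6a1, 0.172 at Col6a3, 0.327 at Col11a1, 0.466 at Col1a2 and 0.577 at Col8a1. The median was 0.686 over the 2280 promoters, of which 61.1% reach 0.6. Col3a1, with no CpG in these 250 bases, and Col1a2, with 11, both lost most of their H3K4me3, as given next.

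H3K4me3 differed between genotypes at all 8 collagen promoters, lower in cKO at 6 and higher at 2 (edgeR quasi-likelihood test, Benjamini-Hochberg adjusted p at or under 0.05 over 3905 promoters). Over all promoters tested, 31.8% were lower and 40.5% higher. The median log2 change of the 8 was -1.45, against 0.04 over all promoters and -0.48 over the 11 other measured collagen chain genes. The 8 were chosen with earlier results of these data known, so their median does not describe collagen genes in general. The 2 libraries of one genotype did not overlap those of the other at any member, as at 85.4% of all promoters tested. Because the libraries come from many cells, a smaller share of cells carrying a mark and less mark in every cell cannot be told apart.

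The type I genes, whose products assemble into one molecule, changed by very different amounts. Col1a2 (ENSMUSG00000029661, chromosome 6, 4503493 to 4507492, GRCm38, promoter of 4 kb) had 443 and 381 CPM of H3K4me3 in WT and 40.7 and 32.3 in cKO. Both cKO libraries lay far below both WT libraries, 11.4-fold lower on average (log2 -3.51 ± 0.12 SE, adjusted p = 5.1e-184). Col1a1 (ENSMUSG00000001506, chromosome 11, 94934224 to 94938223) had 363 and 325 CPM in WT and 289 and 246 in cKO. This was a small decrease, 1.29-fold (log2 -0.37 ± 0.09, adjusted p = 0.00011), and Col1a1 stayed above 65.4% of promoters in cKO while Col1a2 moved from above 89.0% to above 19.9%. Fitted with the 16 libraries together, the Col1a1 change did not pass the test (adjusted p = 0.143).

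Col3a1, the chain of type III collagen, which forms fine fibrils with type I, lost H3K4me3 as Col1a2 did. The gene (ENSMUSG00000026043, chromosome 1, 45309538 to 45313537) had 283 and 234 CPM in WT and 20.4 and 15.9 in cKO, 14.4-fold lower (log2 -3.85 ± 0.16, adjusted p = 2.4e-127). Col11a1, a fibrillar chain known from cartilage, went the other way. Its promoter (ENSMUSG00000027966, chromosome 3, 114028540 to 114032539) had 131 and 147 CPM in WT and 401 and 372 in cKO, 2.77-fold higher (log2 1.47 ± 0.10, adjusted p = 2.8e-49), which made it the promoter with the most H3K4me3 of the 8 in cKO.

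The type VI pair repeated the unequal decrease of the type I pair. Col6a3 (ENSMUSG00000048126, chromosome 1, 90841972 to 90845971) fell from 428 and 389 CPM to 18.5 and 21.6, 20.2-fold, the largest change of the 8 (log2 -4.33 ± 0.13, adjusted p = 8.4e-233). Col6a1 (ENSMUSG00000001119, chromosome 10, 76724169 to 76728168) fell from 393 and 475 CPM to 225 and 188, 2.11-fold (log2 -1.08 ± 0.09, adjusted p = 2e-31). Col6a1 therefore remained above 52.5% of promoters in cKO and Col6a3 above 14.9%.

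Among the network collagens, Col8a1, whose product forms the hexagonal lattice of the corneal Descemet membrane, fell and Col4a3, a chain of the kidney and lung basement membrane, rose. Col8a1 (ENSMUSG00000068196, chromosome 16, 57752738 to 57756737) had 217 and 200 CPM in WT and 57.1 and 61.1 in cKO, 3.52-fold lower (log2 -1.82 ± 0.14, adjusted p = 1.3e-37). Col4a3 (ENSMUSG00000079465, chromosome 1, 82584976 to 82588975) had 11.3 and 17.4 CPM in WT, above 7.71% of promoters. In cKO it had 60.9 and 71.8 CPM, 4.59-fold higher (log2 2.20 ± 0.26, adjusted p = 8.3e-17) but above only 26.0% of promoters. In RefSeq an end of Col4a4, the gene of another type IV chain, lies 59 bp from the window's centre, so counts at Col4a3 cannot be assigned to the one gene or the other. An end of the long noncoding RNA gene Gm46293 lies within the Col1a1 promoter, at -1607 bp from the centre.

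The order of the collagen promoters by H3K4me3 was therefore different in the genotypes. In WT, Col6a1 (434 ± 58.2 CPM, mean ± SD, n = 2), Col1a2 (412 ± 44.0) and Col6a3 (409 ± 27.2) were highest and overlapped each other. Below them and apart from each other came Col1a1 (344 ± 27), Col3a1 (259 ± 34.3), Col8a1 (208 ± 12.1), Col11a1 (139 ± 11.4) and Col4a3 (14.4 ± 4.35). In cKO, Col11a1 was highest (386 ± 20.5 CPM), followed by Col1a1 (267 ± 30.4) and Col6a1 (206 ± 26.0), each apart from the next. The libraries of Col4a3 (66.4 ± 7.71) and Col8a1 (59.1 ± 2.77) overlapped, Col1a2 was lower (36.5 ± 5.94), and Col6a3 (20.1 ± 2.17) and Col3a1 (18.2 ± 3.17) overlapped at the bottom.

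**Figure D1:**
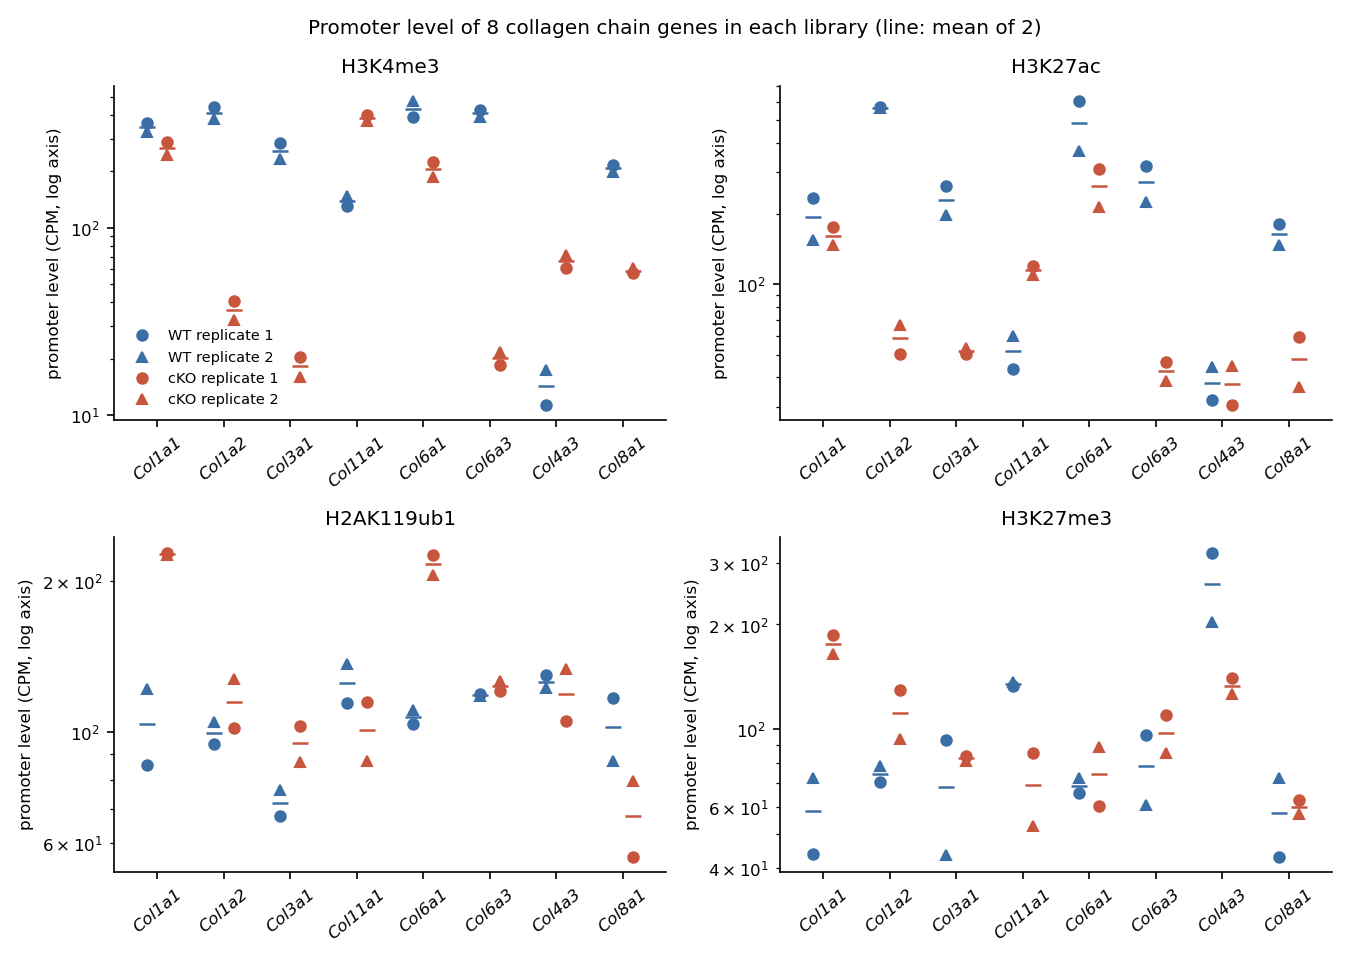
Promoter level (CPM, log axis) of the 8 collagen chain genes in each of the 16 libraries, 1 panel per mark, WT in blue and cKO in red, with circles for replicate 1, triangles for replicate 2 and a line at the mean of 2. In H3K4me3 the cKO points of Col1a2, Col3a1 and Col6a3 lie between 15.9 and 40.7 CPM, where their WT points lie between 234 and 443.

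H3K27ac fell at 5 collagen promoters, rose at 1 and did not pass the test at 2, where 29.1% of all 3892 promoters tested were lower and 30.9% higher. Its median log2 change over the 8 was -1.33, against 0.00 over all promoters and -0.53 over the 11 other measured collagen chain genes. The choice of members limits this comparison too. Col1a2 held 567 and 566 CPM in WT, more than 97.6% of promoters, and 50.5 and 67.3 in cKO, 9.63-fold lower (log2 -3.27 ± 0.17, adjusted p = 4.7e-17). Col3a1 fell from 262 and 196 CPM to 50.5 and 53.2 (log2 -2.14 ± 0.20, adjusted p = 4.3e-11). In neither did the genotypes overlap. The share of all promoters without overlap was computed for H3K4me3 only, where it was 85.4%. Col1a1, the partner of Col1a2, had 233 and 154 CPM in WT and 175 and 147 in cKO, overlapping groups with a log2 difference of -0.26 ± 0.18 (adjusted p = 0.22).

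Of the type VI genes, Col6a3 fell from 320 and 224 CPM of H3K27ac to 46.5 and 38.6 (log2 -2.67 ± 0.20, adjusted p = 4.2e-13). Col6a1 held 603 and 369 CPM in WT and 309 and 214 in cKO (log2 -0.89 ± 0.20, adjusted p = 0.00071). The Col6a1 call depended on the fit: without WT replicate 1 the log2 change was -0.50 (adjusted p = 0.121), and DESeq2 gave an adjusted p of 0.0679. Col8a1 fell from 181.4 and 147 CPM to 59.7 and 36.5 (log2 -1.77 ± 0.23, adjusted p = 4.8e-08). Col11a1 rose from 43.5 and 59.9 CPM to 120 and 109 (log2 1.14 ± 0.23, adjusted p = 5.1e-05). At Col4a3, where H3K4me3 rose, H3K27ac was low in both genotypes, 31.9 and 44.1 CPM in WT and 30.5 and 44.6 in cKO (log2 -0.02 ± 0.33, adjusted p = 0.95).

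H2AK119ub1 rose at 2 of the 8 promoters, Col1a1 and Col6a1, and fell at 0, where 16.7% of the 3889 promoters tested were higher and 16.4% lower. Col1a1 had 85.6 and 122 CPM in WT and 227 and 225 in cKO, 2.18-fold higher (log2 1.12 ± 0.21, adjusted p = 2.6e-06), which moved it from above 45.7% to above 99.3% of promoters. Col6a1 had 103 and 110 CPM in WT and 225 and 206 in cKO, 2.01-fold higher (log2 1.01 ± 0.21, adjusted p = 2.5e-05), from above 48.9% to above 98.6%. Without cKO replicate 1 neither passed the test (log2 1.12 and 0.94, adjusted p = 0.0629 for each), and within 400 bp of the start neither did (adjusted p = 0.0553 and 0.524). Relative to the flanks of the 20 nearest genes Col1a1 had a log2 change of 0.75 (adjusted p = 0.0045), and with that regional level centred on its median over autosomal genes 0.50, which did not pass (adjusted p = 0.0923); Col6a1 passed both ways (1.10 and 0.84). The other 6 had log2 differences from -0.58 at Col8a1 to 0.39 at Col3a1. At Col1a2 and Col6a3, which lost most of their active marks, H2AK119ub1 was 94.3 and 104 CPM in WT against 102 and 127 in cKO, and 118.8 and 117.7 against 120 and 126 (log2 0.20 ± 0.23 and 0.06 ± 0.22). Neither of these passed the test, but both did relative to the 20 nearest genes (log2 0.80 and 0.58, adjusted p = 0.0063 and 0.0456), as did Col3a1 (0.97, adjusted p = 0.0055). With the regional level centred none of the 3 passed (adjusted p = 0.0951, 0.356 and 0.0618). Which members gained H2AK119ub1 thus depends on the regional level.

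H3K27me3 rose at 1 promoter and fell at 2, where 12.4% of the 3883 promoters tested were higher and 15.6% lower. Col1a1 rose from 44.0 and 72.3 CPM to 187 and 165, 3.01-fold (log2 1.59 ± 0.30, adjusted p = 1.8e-06), and passed the test under all 16 settings run. It was called higher in both Polycomb marks and had 267 CPM of H3K4me3 in cKO. Relative to the 20 nearest genes Col1a2 and Col6a3 were called higher in both as well, and with that level centred no member was. Col11a1 fell from 134 and 137 CPM to 85.6 and 52.9 (log2 -0.96 ± 0.31, adjusted p = 0.0111) as its active marks rose. Without WT replicate 2 or cKO replicate 2 this did not pass the test (log2 -0.94 and -0.66, adjusted p = 0.0503 and 0.269), nor did it relative to the nearest genes (log2 -0.67, adjusted p = 0.106). Col4a3, with 322 and 203 CPM in WT above 91.1% of promoters, fell to 140 and 126 (log2 -0.97 ± 0.27, adjusted p = 0.0025), which did not pass without WT replicate 1, cKO replicate 1 or cKO replicate 2 (log2 -0.61, -1.05 and -0.90), within 400 bp (adjusted p = 0.26), relative to the nearest genes (log2 -0.41, adjusted p = 0.297) or with that level centred (-0.66, adjusted p = 0.0675). The other 5 had log2 differences of 0.05 to 0.58, and the largest of these, at Col1a2, passed the test under 5 of 16 settings. These were promoters of 1 kb or 400 bp to each side (log2 1.36 and 3.55, adjusted p = 0.0308 and 0.0153), the level relative to the nearest genes (1.22, adjusted p = 0.0018), that level centred (0.97, adjusted p = 0.0177) and the fit of 16 libraries (0.58, adjusted p = 0.0435). Relative to the nearest genes Col6a3 (0.92, adjusted p = 0.0322) and Col8a1 (1.07, adjusted p = 0.0465) passed too, but not with that level centred.

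**Figure D2:**
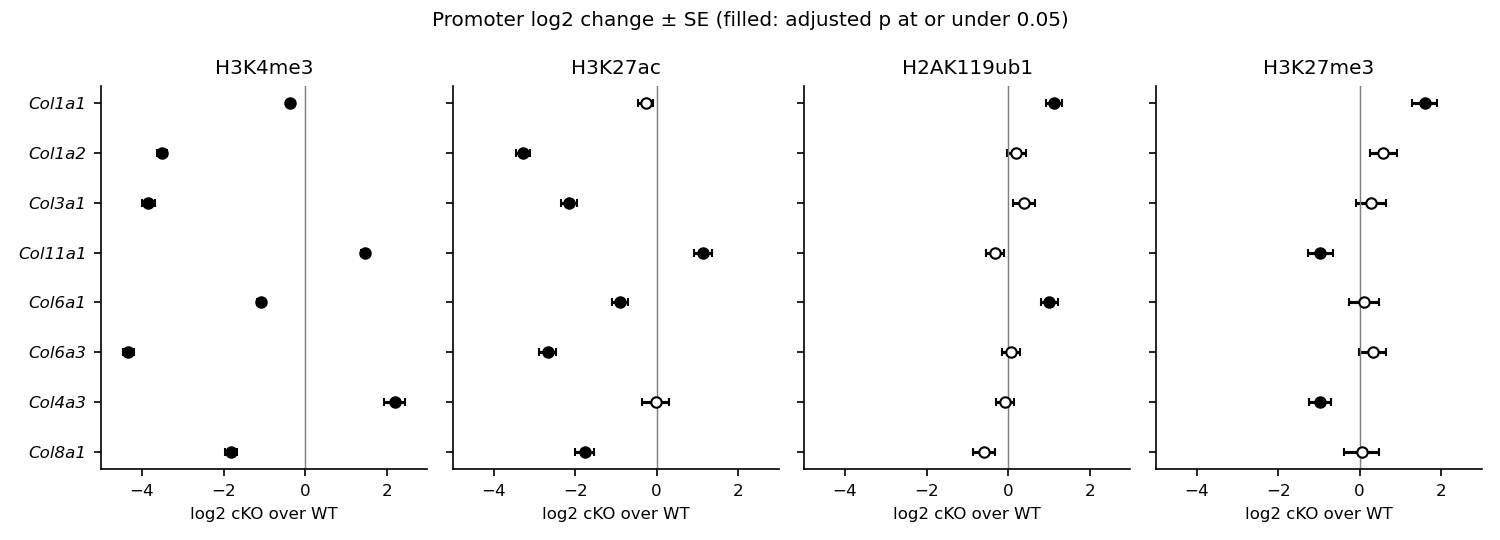
Log2 change of cKO over WT at the promoter of each collagen chain gene, 1 panel per mark, with bars of ± SE from the fit and filled points at an adjusted p at or under 0.05. In H3K4me3 all 8 points are filled, from -4.33 at Col6a3 to 2.20 at Col4a3; in H2AK119ub1 those of Col1a1 (1.12) and Col6a1 (1.01) are.

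By chain class, H3K4me3 fell at 3 of 4 fibrillar genes, at 2 of 2 type VI genes and at 1 of the 2 network or basement membrane genes, and the remaining gene of the first and last class rose. H3K27ac fell at 2 of 4 fibrillar genes, at 2 of 2 type VI genes and at 1 of the 2 network or basement membrane genes. Over all promoters tested, 31.8% were lower and 40.5% higher in H3K4me3, and 29.1% were lower in H3K27ac. Classes of 2 to 4 genes are too small to be told apart from these shares. The spread within the fibrillar class, from -3.85 to 1.47 on the log2 scale in H3K4me3, was wider than the distance between the class medians of -1.94 (fibrillar), -2.71 (type VI) and 0.19 (network or basement membrane), so the classes overlapped.

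Chains of one molecule were compared inside each library, where library scaling cancels. The log2 ratio of Col1a1 to Col1a2 in H3K4me3 was -0.29 and -0.23 in the WT libraries and 2.83 and 2.93 in the cKO libraries. Promoter H3K4me3 of Col1a1 was thus 0.836 times that of Col1a2 in WT and 7.35 times in cKO, a log2 difference of 3.14 (two-sided exact permutation p = 0.333, the smallest that 2 against 2 libraries allow). For Col6a1 over Col6a3 the log2 ratio went from -0.12 and 0.29 to 3.6 and 3.12, that is from 1.06 to 10.3 times (difference 3.28, exact permutation p = 0.333). In H3K27ac the differences were 3.04 for the type I pair and 1.78 for the type VI pair, and in H2AK119ub1 0.95 for each pair (exact permutation p = 0.333 in all 4). In H3K27me3 they were 1.07 for the type I pair (exact permutation p = 0.333) and -0.25 for the type VI pair (exact permutation p = 0.667). In every case but the last the ratios of the 2 cKO libraries both lay above those of the 2 WT libraries. How often the ratios of other gene pairs separate by genotype was not computed. The ratio does not remove differences between the regions of the genes: the regional level of Col1a1 exceeded that of Col1a2 by 0.94 in H3K4me3, 0.74 in H3K27ac, 0.97 in H2AK119ub1 and 0.83 in H3K27me3, and that of Col6a1 exceeded that of Col6a3 by 0.39 to 0.55. With it subtracted, the differences of the type I pair were 2.19, 2.29, -0.018 and 0.24 in that order of marks, and those of the type VI pair 2.87, 1.40, 0.51 and -0.80. The unequal change of the pairs in H3K4me3 and H3K27ac was thus still present, while that of the type I pair in H2AK119ub1 was near 0.

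The 10 kb profiles were then divided into 10 segments of 1 kb. Over all segments tested, 12.5% were lower and 10.8% higher in H3K4me3, 9.70% and 7.94% in H3K27ac, 1.06% and 0.659% in H2AK119ub1 and 2.12% and 1.08% in H3K27me3. H3K4me3 of Col1a2 was lower in 9 of its 10 segments, from 4 kb upstream to 5 kb into the gene. Its log2 change was -3.24 ± 0.16 in the first kb after the start and -5.50 ± 0.39 from 4 to 5 kb, where 102 and 90.9 CPM in WT became 0.475 and 3.29. In WT the Col1a2 H3K4me3 domain thus ran on to the edge of the window. In cKO a remnant of 1.35 CPM per bin peaked 75 bp after the window's centre, which lies 126 bp before the RefSeq start. Col3a1, Col6a3 and Col8a1 were lower in 6 segments each, from 1 kb upstream to 5 kb into the gene. The greatest decrease of Col6a3 was from 1 to 2 kb (168 and 163 CPM against 1.27 and 5.45, log2 -5.48 ± 0.31). Segment values of a few CPM, here and below, rest on few reads, so the size of such changes is imprecise.

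At Col6a1 the H3K4me3 decrease lay inside the gene rather than at the start. From 0 to 1 kb it was 215 and 257 CPM in WT and 155 and 137 in cKO (log2 -0.69 ± 0.12), from 1 to 2 kb -2.03 ± 0.17 on the log2 scale, and from 2 to 3 kb -3.90 ± 0.30, with 49.0 and 75.0 CPM against 3.80 and 4.42. Within 400 bp of the start the change was -0.26 and did not pass the test (adjusted p = 0.155). The peak, measured at 0.5 of its height, narrowed from 1550 to 850 bp. Col1a1 narrowed too, from 2550 to 1300 bp. Its H3K4me3 fell in 5 segments, among them -1 to 0 kb (40.4 and 27.4 CPM against 9.66 and 12.0, log2 -1.63 ± 0.30) and 2 to 3 kb (99.4 and 90.7 against 42.4 and 38.9, log2 -1.23 ± 0.15). In WT the profile had its highest point 325 bp after the start, and in cKO it was 1375 bp after the start.

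The genes that rose did so over different lengths. H3K4me3 of Col11a1 was higher in 6 segments, from 1 kb upstream to 5 kb into the gene, and its log2 change from 4 to 5 kb was 3.38 ± 0.42 (3.87 and 1.78 CPM against 32.8 and 25.1). That of Col4a3 was higher only in the 2 segments next to the start (log2 2.83 ± 0.33 and 3.16 ± 0.46), and the share of its window's H3K4me3 within 1 kb of the start was 24.7% and 17.8% in WT and 66.1% and 64.2% in cKO. Over the whole 10 kb window its change was 1.28 ± 0.22, smaller than at the promoter. The number of members called higher and lower was the same for whole windows as for promoters in each mark. Among all windows 37.3% were lower and 38.2% higher in H3K4me3, 33.6% and 32.2% in H3K27ac, 25.2% and 22.1% in H2AK119ub1, and 22.2% and 17.7% in H3K27me3.

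**Figure D3:**
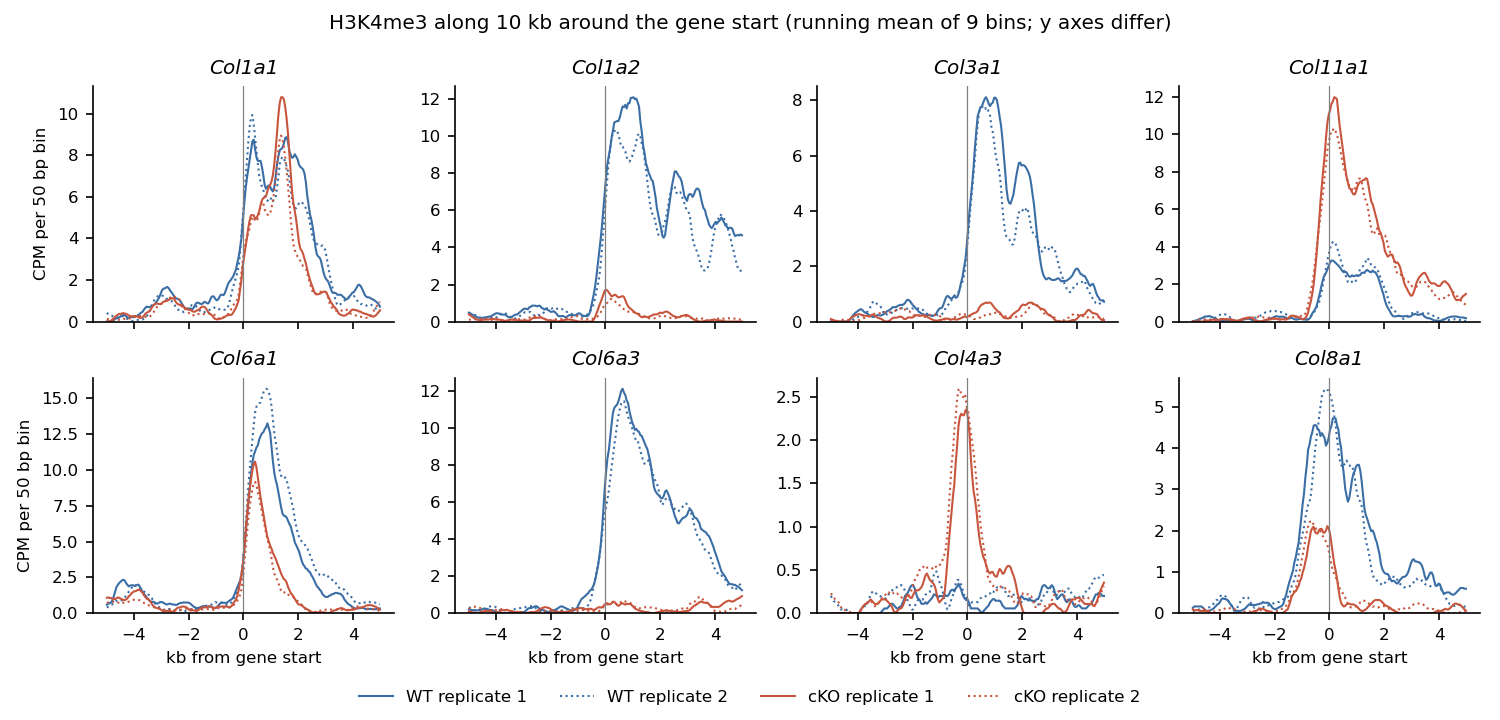
H3K4me3 (CPM per 50 bp bin, running mean of 9 bins, linear axes that differ between panels) against distance from the gene start in kb, 1 line per library. The WT lines of Col1a2 stay high up to 5 kb into the gene, the cKO lines of Col6a1 keep a peak 425 bp after the start but narrow to 850 bp at 0.5 of their height, and the cKO lines of Col4a3 form a peak that the WT lines lack.

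H3K27ac was lower in 7 segments of Col1a2 and of Col6a3 and in 6 of Col3a1, Col6a1 and Col8a1, and higher in 4 of Col11a1, all inside the gene. At Col1a2 an upstream stretch, 3 to 2 kb before the start, fell from 60.5 and 41.5 CPM to 7.36 and 7.29 (log2 -2.79 ± 0.39). In WT the H3K27ac of Col6a1 was highest upstream, 3775 bp before the start. In cKO that stretch was still present: from 5 to 4 kb upstream it had 274 and 319 CPM in WT and 336 and 235 in cKO (log2 -0.06 ± 0.18, adjusted p = 0.88), and from 4 to 3 kb 322 and 299 CPM in WT and 245 and 178 in cKO (log2 -0.55 ± 0.18, adjusted p = 0.0395). Between that stretch and the start the log2 changes were -0.88 ± 0.24, -1.33 ± 0.27 and -1.07 ± 0.25 per kb. Col1a1 fell in 1 segment, from 2 to 1 kb upstream (57.7 and 37.1 CPM against 21.5 and 22.4, log2 -1.10 ± 0.34, adjusted p = 0.0305).

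**Figure D4:**
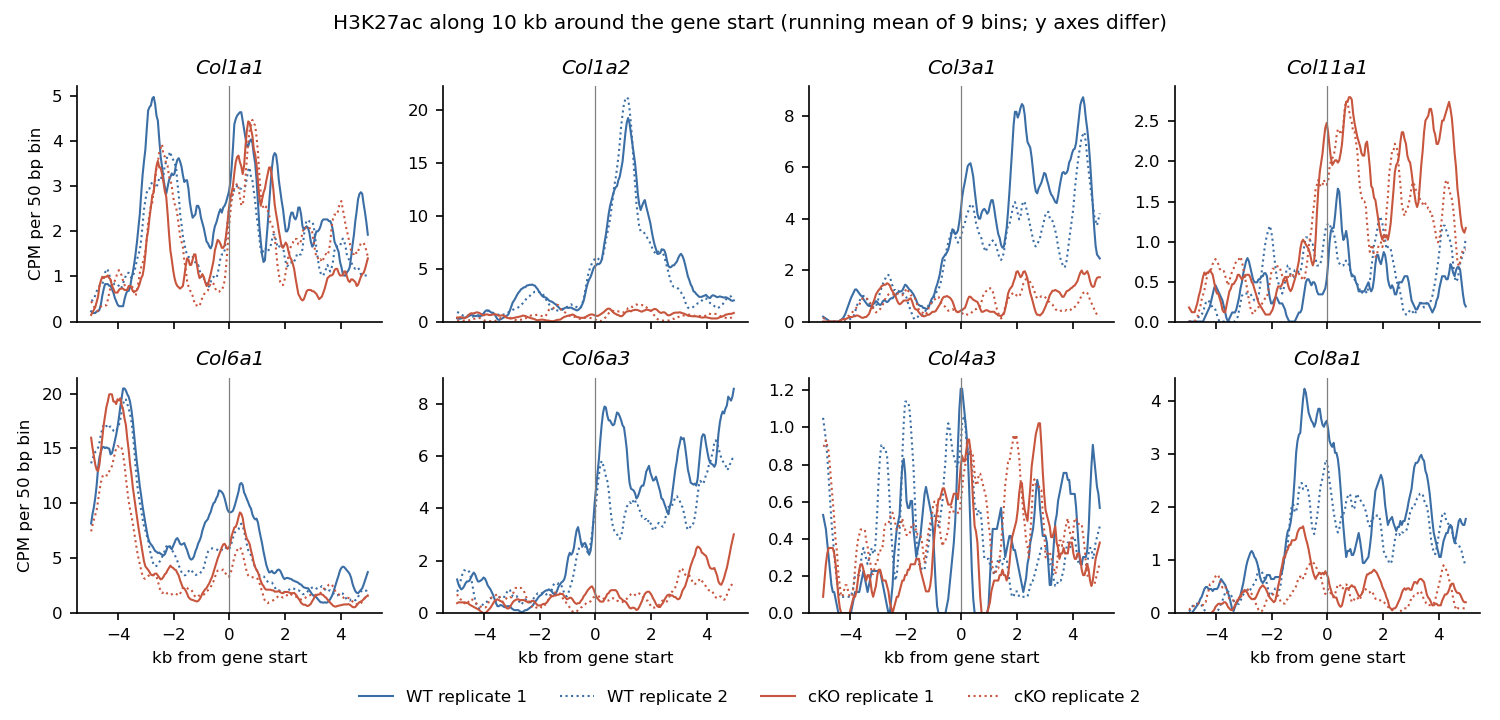
H3K27ac (CPM per 50 bp bin, running mean of 9 bins, linear axes that differ between panels) against distance from the gene start in kb, 1 line per library. At Col6a1 the stretch around 3775 bp upstream is high in all 4 libraries, while at Col1a2 the WT lines reach 20.2 CPM per bin on average and the cKO lines 1.37.

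The Polycomb marks were called in few segments, and some of their segment levels rest on few reads. The whole Col1a1 window held 172 and 244 counts of H3K27me3 in WT, with each read counted in 3 bins. H2AK119ub1 rose in 2 segments of Col6a1, both upstream: from 4 to 3 kb before the start 8.66 and 16.3 CPM became 62.7 and 62.0 (log2 2.32 ± 0.40, adjusted p = 0.0031), and from 2 to 1 kb 18.8 and 31.5 became 67.4 and 64.8 (log2 1.39 ± 0.35, adjusted p = 0.0359). The first of these lies under the upstream H3K27ac stretch. H3K27me3 rose in 2 segments of Col1a1, from 0 to 1 kb (5.17 and 8.55 CPM against 64.3 and 42.0, log2 2.93 ± 0.57, adjusted p = 0.0130) and from 2 to 3 kb (7.76 and 24.9 against 60.7 and 84.1, log2 2.13 ± 0.53, adjusted p = 0.0417). Both lie inside the gene, where H3K4me3 fell. These counts moved when 1 library was left out: the H2AK119ub1 count was 1 without WT replicate 1 or cKO replicate 1 and 4 without WT replicate 2, and the H3K27me3 count was 1 without WT replicate 1, cKO replicate 1 or cKO replicate 2.

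**Figure D5:**
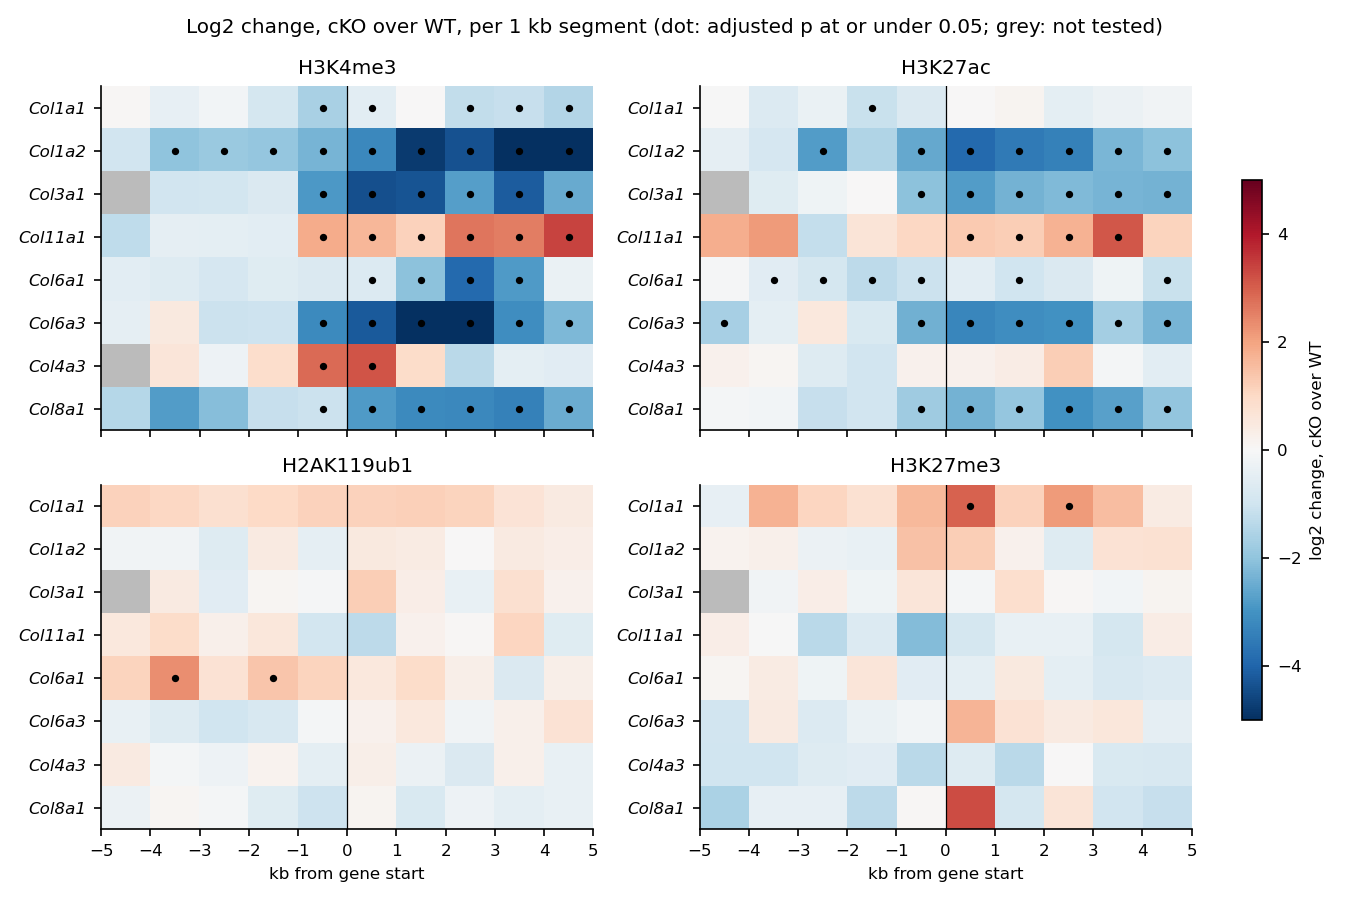
Log2 change of cKO over WT in each 1 kb segment from 5 kb upstream to 5 kb into the gene, 1 panel per mark, with a dot at an adjusted p at or under 0.05 and grey where the segment was not tested; the colour scale ends at -5 and 5. In H3K4me3 the decrease of Col6a1 grows from -0.69 in the first kb to -3.90 from 2 to 3 kb, and dots in the lower panels are limited to Col6a1 and Col1a1.

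The level of the surrounding region also differed between genotypes. It was measured as the median log2 change of the outer 1 kb flanks of the 20 nearest other genes, averaged over the 3 marks other than the one tested, and its median over autosomal genes was -0.11 (H3K4me3) to -0.26 (H2AK119ub1). Around Col8a1 it was -1.01 to -1.09 in the 4 marks, and around Col1a1 0.20 to 0.52. Relative to its neighbours, Col8a1 was lower by less, with a log2 change of -0.80 in H3K4me3 (adjusted p = 1.7e-08) and -0.75 in H3K27ac (adjusted p = 0.0049). Relative to theirs, Col1a1 had a log2 change of -0.89 in H3K4me3 and -0.56 in H3K27ac, where it passed the test (adjusted p = 0.0115). At the other 6 the regional level was between -0.64 and 0.03, and their H3K4me3 calls stood. The H2AK119ub1 calls were 5 higher relative to the neighbours (Col1a1, Col1a2, Col3a1, Col6a1 and Col6a3), or 1 (Col6a1) with the regional level centred at 0 over autosomal genes, and the H3K27me3 calls 4 higher (Col1a1, Col1a2, Col6a3 and Col8a1) and 0 lower, or 2 (Col1a1 and Col1a2) and 1 (Col11a1). The part of the regional level in the other results was not tested.

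Genes that work with these collagens were described from lists, without a set test. Over all promoters tested, 31.8% were lower and 40.5% higher in H3K4me3, and 29.1% and 30.9% in H3K27ac. Of 36 other collagen chain genes 11 were measured: H3K4me3 fell at 6 and rose at 3, and H3K27ac fell at 7 and rose at 0 (median log2 change -0.48 and -0.53). Col6a2, the type VI chain gene next to Col6a1, fell by 1.03 ± 0.09 on the log2 scale in H3K4me3 (374 and 371 CPM to 198 and 168), close to the 1.08 of Col6a1 and far from Col6a3. Col16a1, a fibril-associated chain, had a log2 change of -1.37 ± 0.17, and the type V chains Col5a2 and Col5a1, which join type I fibrils, -0.59 ± 0.08 and -0.46 ± 0.07. All 4 also fell in H3K27ac. The promoter of Col5a1 overlaps that of another measured gene, so its counts are partly shared with it.

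Of 34 genes of collagen synthesis and cross-linking 12 were measured. H3K4me3 fell at 8 and rose at 3, where 31.8% of all promoters tested were lower and 40.5% higher. H3K27ac fell at 9 and rose at 1, where 29.1% were lower and 30.9% higher. Loxl1, a cross-linking lysyl oxidase, fell from 281 and 279 CPM of H3K4me3 to 37.8 and 31.0 (log2 -3.03 ± 0.14). The related Loxl3 had a log2 change of -1.41 ± 0.07, Creb3l1, a transcription factor of osteoblasts that acts on type I collagen, -1.50 ± 0.11, and Pcolce, which enhances the trimming of procollagen, -0.71 ± 0.09. The promoters of Loxl3 and Pcolce each overlap that of another measured gene, so their counts are partly shared with it. Of 23 genes of collagen degradation and collagen receptors 9 were measured, and H3K4me3 fell at 6 and rose at 3. Mmp16, a membrane metalloproteinase, rose from 17.4 and 18.7 CPM to 290 and 248 (log2 3.89 ± 0.15), and Timp3, an inhibitor of such enzymes, rose by 1.80 ± 0.09. Ctsk, the collagen-cleaving cathepsin K, had a log2 change of -3.14 ± 0.21 and Mmp2, a gelatinase, -1.0 ± 0.10.

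Of 42 other matrix genes 20 were measured. H3K4me3 fell at 9 and rose at 7, where 31.8% of all promoters tested were lower and 40.5% higher. Their median log2 change was -0.01, against 0.04 over all promoters. Fbn2, a fibrillin of developing tissue, rose from 12.1 and 19.6 CPM to 364 and 350 (log2 4.47 ± 0.14). Emilin1, an elastic fibre protein, had a log2 change of -3.77 ± 0.14, and Ccn4, a matricellular Wnt target, one of -2.3 ± 0.11; both fell. Bgn, the proteoglycan biglycan, fell by 5.34 ± 0.20 on the log2 scale and lies on the X chromosome. Counts outside the autosomes made up 1.82% to 1.87% of the WT and 1.33% to 1.35% of the cKO H3K4me3 libraries. They were 1.95% and 1.96% against 1.37% and 1.36% in H3K27ac, and 3.22% and 3.26% against 1.47% and 1.48% in H2AK119ub1. The H3K27me3 libraries had 3.83% and 3.55% in WT and 1.56% and 1.52% in cKO. Whether the genotypes differ in the sex of the mice was not tested. All 8 members lie on autosomes. Of 13 stromal marker genes 8 were measured. H3K4me3 fell at 6 and rose at 0, beside the same shares over all promoters. Thy1 and Prg4 did not pass the test (log2 -0.33 and 0.03). The summed H3K4me3 of the 8 went from 2102 and 1979 CPM in WT to 878 and 881 in cKO. H3K27ac fell at 6 and rose at 0, where 29.1% of all promoters tested were lower and 30.9% higher. Its sum went from 1551 and 1387 CPM to 585 and 600. In H3K4me3 the log2 change of Pdgfrb was -2.24 ± 0.09, that of Eng, the endoglin gene, -3.83 ± 0.19, that of Vcam1, an adhesion molecule of marrow stroma, -2.11 ± 0.17, and that of Cxcl12 -0.75 ± 0.08, all of them called. The part of a changed mix of stromal cells in the collagen results was not tested.

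The promoters whose levels ran most like those of Col1a2 over the 16 libraries, after the mean of each mark was removed, were those of Srgap3 (Pearson r = 0.980), Tmem95 (0.979) and Gm9949 (0.978), among 3875 promoters. For Col6a3 they were Thbd, the thrombomodulin gene (0.981), and the genes ENSMUSG00000039153 (0.978) and ENSMUSG00000051498 (0.975). These values describe libraries that share their genotype and scaling. H3K4me3 of Thbd had a log2 change of -3.28, beside -4.33 at Col6a3, and that of Srgap3 -2.39, beside -3.51 at Col1a2.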

How the data were processed

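ChIP-seq of 4 histone marks in endosteal MSCs gave 2 libraries per mark and genotype; titles supplied the groups and the replicate numbers. Per the file headers, each row of the table that the authors deposited is a 50 bp bin, 200 of them around each of 3925 gene starts, with a raw count of reads per library. The build was GRCm38 and, per the submitters' processing notes, the tools included bedtools 2.30.0, SAMtools 1.9, Picard 2.25.5, Bowtie2 2.4.5 and cutadapt 1.18; the notes used here hold no settings. Among runs of filled bins under 6 bins long with 1 count per bin, 98.3% were 3 bins long, so a read is counted in 3 bins, and 1 bin in 3 gave 429493 to 3371063 reads per library. These cover the windows only, so a shift common to all windows is not detectable. Precision is limited by these counts.

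Symbols were assigned by position (RefSeq GRCm38.p6, gene start within 500 bp of the window's centre), which named 3024 genes (77.0%). Counts were summed over 2 kb to each side of the start (promoter), the 10 kb window and 1 kb segments. Each mark was tested alone for genotype with the quasi-likelihood test of edgeR 4.0.16 under R 4.3.3, with robust dispersion, with autosomal library sizes, TMM factors from autosomal windows, filterByExpr with a minimum count of 10 and Benjamini-Hochberg adjustment over all features; the script was tested on simulated data. All 8 members passed the filter in every mark. SE is the absolute log2 change over the square root of F. "Rose" and "fell" refer to calls at 0.05. Percentages of promoters are shares with a lower mean CPM in that genotype. Likeness was computed on log2(CPM + 1). Named genes were the members, the 4 of lowest H3K4me3 p in each list, the stromal markers used to check the cell type and 3 promoters by likeness for Col1a2 and Col6a3. The members and lists were chosen with earlier results of these data known. Same-numbered libraries did not deviate together (r -0.04 to 0.08), so numbers were not used as pairs.

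Alternatives were total counts, other TMM settings, DESeq2 1.42.0, no filter, 1 bin in 3, promoters of 1 kb or 400 bp to each side, each library left out, a replicate block, all 16 libraries in 1 fit and the regional level; its centred form, and its use on chain ratios, were chosen after seeing the data. Input libraries were not analysed here.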

Additional observations from a re-analysis of the deposited data

How the results depend on the processing

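The H3K4me3 and H3K27ac counts of promoters and 10 kb windows moved by less than 1.5 times under every alternative run. In H2AK119ub1, 2 promoters were higher; the count was 5 relative to the 20 nearest genes, 1 with that level centred, 0 within 400 bp and 0 to 2 with 1 library left out. The lower count, 0, was 1 within 1 kb (Col11a1) and 0 to 1 with 1 library left out. In H3K27me3 the higher count of 1 was 4 relative to the nearest genes and 2 with that level centred, within 1 kb, within 400 bp and in the fit of 16 libraries; the lower count of 2 was 0, 1 centred, 1 within 400 bp and 0 to 1 with 1 library left out. For whole windows relative to the nearest genes, 6 were higher in H2AK119ub1, and 5 higher and 0 lower in H3K27me3; the last was 1 with total counts and 0 to 2 with 1 library left out. For segments, the H2AK119ub1 count of 2 was 1 relative to the nearest genes and 1 to 4 with 1 library left out; the H3K27me3 counts were then 1 to 2 higher and 0 to 1 lower. The log2 ratio difference of Col1a1 to Col1a2 in H3K4me3 was 2.39 within 1 kb and 3.25 over 10 kb, that of Col6a1 to Col6a3 2.60 over 10 kb, and in H3K27ac 2.24 within 1 kb. In H2AK119ub1 the pairs gave 1.21 and 0.75 within 1 kb, and in H3K27me3 1.51 and -1.37. Relative to the nearest genes, an alternative for the ratios chosen after seeing the data, the type I pair gave 2.19 (H3K4me3), 2.29 (H3K27ac), -0.018 (H2AK119ub1) and 0.24 (H3K27me3), and the type VI pair 2.87, 1.40, 0.51 and -0.80; its H3K27me3 difference was -0.72 to 0.21 with 1 library left out. The causes were not tested.

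The replicate number as a block gave the same promoter counts (2 higher and 6 lower in H3K4me3); it raised the H2AK119ub1 segment count from 2 to 4. The numbers do not pair the libraries.

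Of the single promoter values under alternatives, 427 kept direction and side of the threshold, 14 passed it and 18 missed it; 21 changed sign, all of them values that did not pass the test. In H2AK119ub1 these were Col1a2 (-0.38 within 400 bp), Col4a3 (0.36 and 0.11 relative to the nearest genes and centred, -0.26 to 0.081 with 1 library left out) and Col8a1 (0.50 and 0.25, nearest and centred). In H3K27me3 they were Col3a1 (-0.17 to 0.92 with 1 library left out), Col6a1 (-0.081 centred, -0.20 to 0.37 with 1 library left out, -0.53 within 1 kb, -0.85 within 400 bp) and Col8a1 (-0.27 to 0.47 with 1 library left out, -0.012 from 1 bin in 3). In H3K27ac they were Col1a1 (-0.54 to 0.062 with 1 library left out) and Col4a3 (0.35 and 0.11 nearest and centred, -0.32 to 0.23 with 1 library left out, 0.21 within 1 kb, 0.021 from 1 bin in 3).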
